A study of Mus musculus with 8 samples.

Results

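Extracellular vesicles (EVs) of activated T cells (ATEVs) that had been pretreated with a DNase were compared with untreated ATEVs by RNA sequencing of the tumour cells that received them. The comparison has 4 of the study's 8 libraries, 2 from cells given DNase-treated ATEVs and 2 from cells given untreated ATEVs, and covers all 15197 genes that passed a filter on expression, of 42687 in the count table. The cells were a single clone of pancreatic cancer cells of low immunogenicity, isolated from KPCY mice. Among the alleles of these mice are Trp53 LSL-R172H, Pdx1-Cre and a YFP reporter at Rosa26, and Cre driven by the Pdx1 promoter switches on mutant p53 and YFP in the pancreatic lineage. Both groups were the same cells, with a genotype label of WT, and both received 15 µg/mL of mouse ATEVs. In one the vesicles were first treated with Baseline-ZERO DNase, a nuclease that digests DNA, and in the other they were not. For the untreated ATEVs an EV-DNA dose of 5 µg/mL is listed, and for the DNase-treated ATEVs none is listed. Exposure, harvest and reseeding were repeated 8 times. The other 4 libraries, 2 from cells given 30 µg/mL of EVs of non-activated T cells (NTEVs, a dose set to 5 µg/mL of EV-DNA) and 2 from cells given PBS, serve here as background levels. None of the 4 groups received DNase without vesicles. Whether replicate libraries were grown separately is not stated in the labels, and the spread that enters each p-value may therefore be technical.

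EVs are membrane-bound particles that cells release and that carry protein, RNA and DNA. DNA that reaches the cytosol of a cell is bound by the sensor cGAS, which signals through STING to induce type I interferon. Interferons act through receptors and STAT transcription factors on a shared set of target genes. Interferon gamma, the type made by activated T cells, works through STAT factors and IRF1 and is the main inducer of class II antigen presentation and of the guanylate-binding and immunity-related GTPases, while type I interferon is the main inducer of the antiviral genes. In a tumour cell the presentation genes among these targets affect how visible it is to T cells.

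Total counts were 40345707 and 38260045 with DNase-treated ATEVs and 44104540 and 43330950 with ATEVs. The keratins Krt8, Krt18 and Krt19 and the epithelial cadherin Cdh1 were above 1000 CPM (counts scaled to library size) in all 4 libraries, while the ductal factor Sox9 was between 3.82 and 6.94 CPM. Of 24 T cell markers, 14 and 14 had no count with DNase-treated ATEVs and 17 and 15 with ATEVs, Cd2 and Cd8a among them in every library. Their summed level was 11.8 and 9.14 CPM with DNase-treated ATEVs and 11.3 and 8.88 CPM with ATEVs, nearly all of it from Trac and Lck. No library had a count for the interferon genes Ifng or Ifnb1.

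Cells given DNase-treated ATEVs had far lower RNA levels of antigen presentation genes and interferon-inducible GTPases than cells given untreated ATEVs. By edgeR's quasi-likelihood test with Benjamini-Hochberg adjustment at 0.05, 101 of the 15197 genes differed (0.665% of those tested). Of these, 88 were lower with DNase-treated ATEVs (0.579%) and 13 were higher (0.0855%). The falls were deep: the median of the 88 genes was left at 3.66% of its ATEV mean, 87 were at least 2-fold lower and 57 at least 10-fold lower. Of the 88, 60 belonged to the gene lists described below, and 82 were protein-coding. Over all genes the median log2 fold change was 0.01. Some of the 88, H2-Ab1 and H2-Q6 among them, were near absent outside the ATEV libraries and passed the filter on expression only through those libraries. Such genes could only come out lower. Both DNase-treated libraries lay above both PBS libraries for 48 of the 88 genes, below them for 16 and among them for 24, where 29.7% of all genes lay above. Against NTEV libraries they lay above for 35, below for 10 and among them for 43, where 20.3% of all genes lay above. Shares of all genes below or among the background libraries are not given here, so those counts have no share to be read against. In a bulk library a smaller share of responding cells and less RNA in each cell cannot be told apart.

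**Figure D1:**
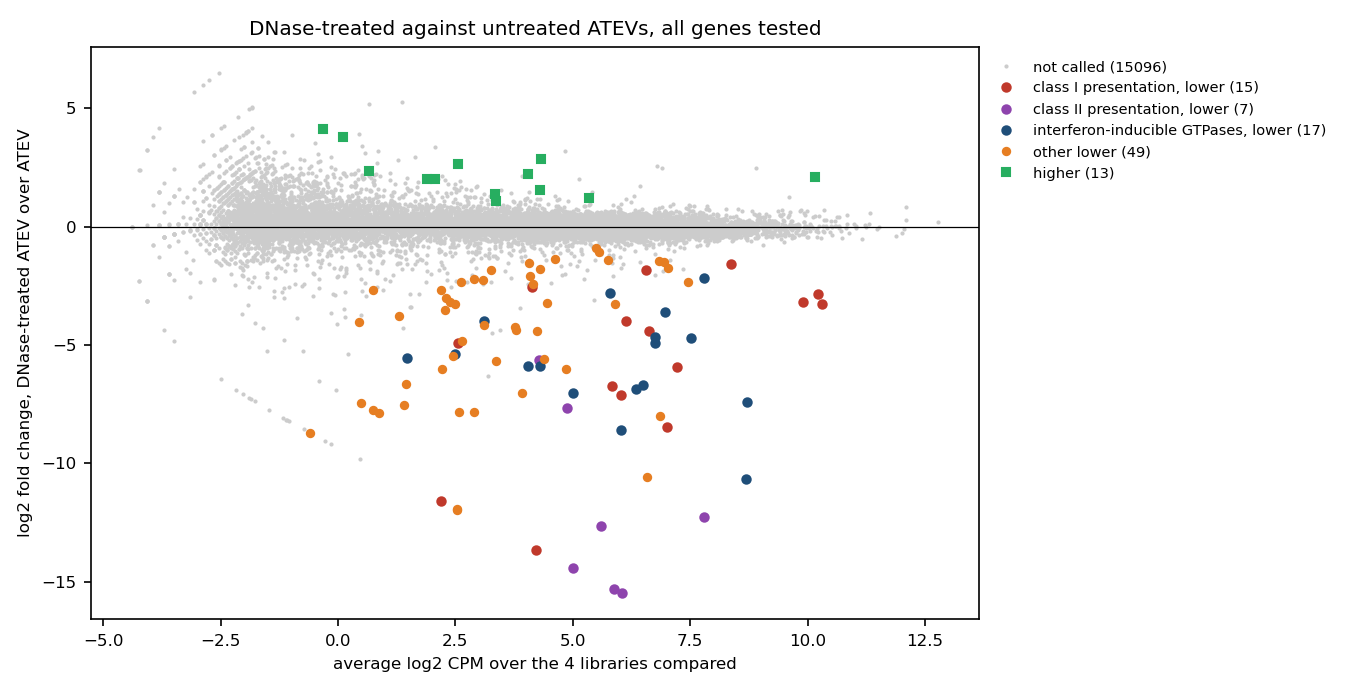
Each point is 1 of 15197 genes, with the average log2 CPM over the 4 libraries compared on the x axis and the log2 fold change of DNase-treated ATEV over ATEV on the y axis. Filled colours mark genes called by edgeR at an adjusted p of 0.05: the 88 lower genes reach -15.48, where a group has no counts and the value depends on the prior count, and the 13 higher genes reach 4.11.

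Class I presentation, by which nearly every cell shows peptides of its own proteins to CD8 T cells, was lower with DNase-treated ATEVs in 15 of 26 measured genes and higher in none, with a median log2 fold change of -2.31. The heavy chain H2-K1 had 219.9 and 260.0 CPM with DNase-treated ATEVs, against 2000.0 and 2576 CPM with ATEVs. The groups were far apart, and the level with DNase-treated ATEVs lay within the range of the NTEV libraries (203 and 280.0 CPM) and above the PBS libraries (195 and 190.4 CPM). The log2 fold change was -3.25 (SE 0.22, edgeR adjusted p = 0.0018). H2-D1, another heavy chain, had 275 and 309 CPM with DNase-treated ATEVs, against 1880.1 and 2292 CPM with ATEVs (log2 -2.84, SE 0.18, edgeR adjusted p = 0.0018). B2m, the light chain shared by all class I molecules, had 149 and 238 CPM with DNase-treated ATEVs, against 1520.0 and 1949 CPM with ATEVs (log2 -3.16, SE 0.28, edgeR adjusted p = 0.00556). These 3 genes kept between 10.5% and 14.0% of their ATEV mean. Genes that prepare the peptides kept uneven shares. Tapbp, the peptide loading factor tapasin, was lower and kept 33.6%, though its call was lost without DNase-treated library 1 (edgeR adjusted p = 0.24), library 2 (0.212) or ATEV library 1 (0.107). Psmb10, Erap1, Tapbpl, Psme1 and Psme2, none of them called, stood at 24.4%, 23.7%, 28.4%, 48.8% and 67.1% of their ATEV means. Psmb8, a catalytic subunit of the immunoproteasome, had 0.653 and 0.772 CPM with DNase-treated ATEVs, against 316 and 195 CPM with ATEVs, a 358-fold difference (log2 -8.48, SE 0.33, edgeR adjusted p = 0.000175). Psmb9, its partner subunit, had 0.968 and 1.14 CPM with DNase-treated ATEVs, against 136 and 89.1 CPM with ATEVs (log2 -6.73, SE 0.46). Tap1, which with Tap2 pumps peptides into the endoplasmic reticulum, had 3.80 and 6.0 CPM with DNase-treated ATEVs, against 347 and 242 CPM with ATEVs (log2 -5.91, SE 0.45). Nlrc5, the transactivator of class I genes, had 0.508 and 1.34 CPM with DNase-treated ATEVs, against 151 and 109 CPM with ATEVs (log2 -7.13, SE 0.74, edgeR adjusted p = 0.00923). H2-Q6 and H2-Q7, non-classical class I chains, had no count with DNase-treated ATEVs, at least 1006-fold and 246-fold lower than with ATEVs on a floor of 3 counts over the group. Reads of the H2-K, H2-D and H2-Q genes can be split between near-identical copies, so single members of that family are uncertain. Canx and Pdia3, chaperones that every secretory cell uses, overlapped between the groups (log2 -0.32 and -0.20, neither called). The calls of Nlrc5 and Tap2 were lost without either DNase-treated library (edgeR adjusted p 0.0999 and 0.0569 for Nlrc5, 0.164 and 0.125 for Tap2, without library 1 and 2 of that group).

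**Figure D2:**
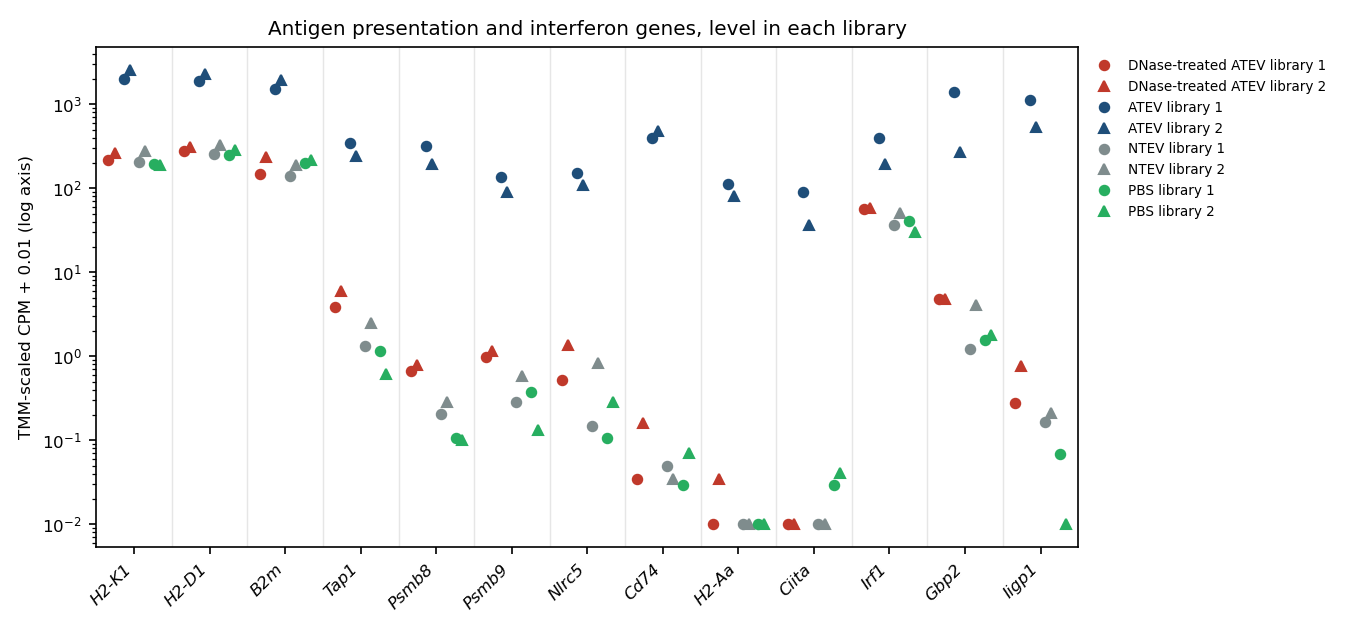
TMM-scaled CPM plus 0.01, on a log axis, of 13 antigen presentation and interferon genes in each of the 8 libraries, with circles for library 1 and triangles for library 2 of a group. For every gene shown both libraries with DNase-treated ATEVs lie below both with ATEVs; H2-K1, H2-D1 and B2m stay above 100 CPM while Cd74, H2-Aa and Ciita lie at or near 0.

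Class II presentation shows peptides to CD4 T cells and is normally confined to professional antigen-presenting cells unless interferon gamma induces it. Of 10 measured genes 7 were lower with DNase-treated ATEVs and none was higher. The 7 were near absent with DNase-treated ATEVs and also in the background libraries. H2-Aa, H2-Ab1 and H2-Eb1 had 0 CPM in every NTEV and PBS library. Cd74 had 0.0391 and 0.0249 CPM with NTEVs and 0.0194 and 0.0608 CPM with PBS. The median log2 fold change was -9.98, or -9.21 with genes at 0 counts set to their bound. Cd74, H2-Aa, H2-Ab1, H2-Eb1 and Ciita passed the filter on expression only through the ATEV libraries. These genes could only come out lower, so the count of 7 and the median follow in part from the filter. Cd74, the invariant chain that guards the peptide groove, had 0.0242 and 0.149 CPM with DNase-treated ATEVs, which are 1 and 6 counts, against 401 and 483 CPM with ATEVs (log2 -12.28, SE 0.43, edgeR adjusted p = 0.000172). It had the smallest p of any gene tested. Ciita, the master regulator of class II genes, had no count in either DNase-treated library and 90.6 and 36.6 CPM with ATEVs, at least 1728-fold lower. Its call was lost without DNase-treated library 1 (edgeR adjusted p = 0.0566). The class II chain genes H2-Ab1 and H2-Eb1 had no count with DNase-treated ATEVs either, at least 3602-fold and 3200.5-fold lower than with ATEVs. H2-Aa had 1 count over both DNase-treated libraries and 8414 with ATEVs, 7853-fold lower (95% interval from counting error 1409 to 310212). The exchange factor genes H2-DMa and H2-DMb1 were at 2.02% and 0.486% of their ATEV means. The 3 measured class II genes that did not pass were Rfx5, Rfxap and Rfxank, subunits of the constitutive factor that recruits CIITA to these promoters, with log2 fold changes of -0.23, -0.34 and 0.51.

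The interferon-inducible GTPases are, apart from Mx1 and Mx2, mostly cytosolic proteins that attack the vacuoles of intracellular pathogens. With DNase-treated ATEVs 17 of 23 measured genes were lower and none was higher, with a median log2 fold change of -4.93. Their summed level was 154 and 215 CPM with DNase-treated ATEVs, against 5522 and 2112 CPM with ATEVs, 109 and 145 CPM with NTEVs and 111 and 82.5 CPM with PBS. Iigp1, an immunity-related GTPase, had 0.266 and 0.747 CPM with DNase-treated ATEVs, against 1111 and 535 CPM with ATEVs (log2 -10.66, SE 0.65, edgeR adjusted p = 0.00166). Gbp2, a guanylate-binding protein, had 4.82 and 4.83 CPM with DNase-treated ATEVs, against 1386 and 269.6 CPM with ATEVs (log2 -7.42, SE 0.96, edgeR adjusted p = 0.0244). The ATEV libraries differed from each other more for these genes than for class I: 21 of 23 GTPases were higher in ATEV library 1, by a median of 1.07 on the log2 scale. Tgtp2 fell by 8.61 (SE 0.56), Gvin1 by 5.38 (SE 0.45) and Gbp3 by 4.67 (SE 0.48) on the log2 scale (edgeR adjusted p = 0.0018, 0.00485 and 0.00923). Tgtp1 and Tgtp2, and neighbouring Gbp genes, are near-identical in sequence, so their separate values are uncertain. Mx2, a GTPase typical of the type I interferon response, did not follow the others: it had 8.16 and 15.0 CPM with DNase-treated ATEVs, against 4.0 and 5.89 CPM with ATEVs (log2 1.23, SE 0.41, edgeR adjusted p = 0.32). The count of lower GTPases depended on single libraries. It was 2 and 4 when DNase-treated library 1 or 2 was left out, and 10 and 17 when ATEV library 1 or 2 was. Gbp2 was not called without DNase-treated library 1 (edgeR adjusted p = 0.215) or library 2 (0.22), nor was Gbp3 (0.122 and 0.0774). Gvin1 was not called without DNase-treated library 1 (0.0566).

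The promoters of the lower genes were read for 2 motifs through which interferon acts. The interferon-stimulated response element (ISRE) was searched as a pair of TTTC with any 2 bases between them, on either strand, a core bound by IRF proteins and by the type I interferon complex ISGF3. The gamma-activated site (GAS) was searched as TTCNNNGAA, which is its own reverse complement and is bound by STAT dimers. Promoter sequences of RefSeq on build GRCm38.p6, from 250 bases before to 50 after each start, matched 59 of the 88 lower genes with 71 promoters. An ISRE stood in 28.2% of these 71 promoters and in 3.44% of all 32851 promoters in the table, and a GAS in 19.7% and 8.30%. Both stood in 14.1% against 0.454%. The matches were uneven among the lists. Of the lower GTPases 11 had a promoter entry, and 10 of these held an ISRE, 7 a GAS and 7 both. Of 12 lower class I genes with an entry 2 held an ISRE and 2 a GAS, and of 4 class II genes none held either. The 8 higher genes with an entry had no ISRE and 1 GAS, in Plekhg4. In 5 promoters a GAS was followed by an ISRE with 2 bases between them. These were the promoters of Gm12185, Igtp, Irgm2, Tgtp1 and Tgtp2, which are all lower with DNase-treated ATEVs and were 5 of 5 such promoters in the whole table. They belong to related genes of chromosome 11 and are not independent of each other. Only this order and spacing, the one found in these genes, was counted over the table. The 5 of 5 is therefore a description and cannot serve as a test. A match is a description of letters and not a measured site.

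The windows below run from 150 bases before to 29 after the start on GRCm38.p6, 5′ to 3′ along the gene, with the matched motif bases in capitals. They are shown to set the paired arrangement beside promoters with 1 kind of motif. Igtp (chr11:58199406-58199585, plus strand), Irgm2 (chr11:58214827-58215006, plus strand) and Tgtp2 (chr11:49064183-49064362, minus strand) have the pair. Gbp3 (chr3:142559894-142560073, plus strand) has overlapping ISRE matches and B2m (chr2:122147537-122147716, plus strand) a single distal one. Irf1 (chr11:53769864-53770043, plus strand) and Psmb8 (chr17:34198045-34198224, plus strand) have a GAS only.
Igtp: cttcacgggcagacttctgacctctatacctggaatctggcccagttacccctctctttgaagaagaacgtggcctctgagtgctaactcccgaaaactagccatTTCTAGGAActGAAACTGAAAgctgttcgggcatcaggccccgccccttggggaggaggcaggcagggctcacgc
Irgm2: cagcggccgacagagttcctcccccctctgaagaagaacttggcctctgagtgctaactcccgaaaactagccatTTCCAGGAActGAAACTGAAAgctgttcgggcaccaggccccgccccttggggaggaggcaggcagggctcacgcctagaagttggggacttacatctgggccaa
Tgtp2: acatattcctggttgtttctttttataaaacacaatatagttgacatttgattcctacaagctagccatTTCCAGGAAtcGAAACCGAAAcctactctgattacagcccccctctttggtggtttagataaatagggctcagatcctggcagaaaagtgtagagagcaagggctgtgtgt
Gbp3: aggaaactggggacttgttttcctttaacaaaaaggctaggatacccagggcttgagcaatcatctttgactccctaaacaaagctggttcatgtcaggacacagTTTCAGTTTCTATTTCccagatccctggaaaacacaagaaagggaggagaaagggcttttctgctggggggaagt
B2m: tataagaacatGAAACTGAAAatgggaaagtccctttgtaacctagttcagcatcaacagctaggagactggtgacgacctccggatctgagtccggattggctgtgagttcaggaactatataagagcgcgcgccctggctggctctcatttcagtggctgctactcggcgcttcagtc
Irf1: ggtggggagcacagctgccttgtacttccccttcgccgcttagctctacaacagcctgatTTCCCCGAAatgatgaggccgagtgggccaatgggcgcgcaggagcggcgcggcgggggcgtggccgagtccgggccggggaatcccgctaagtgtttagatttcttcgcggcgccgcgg
Psmb8: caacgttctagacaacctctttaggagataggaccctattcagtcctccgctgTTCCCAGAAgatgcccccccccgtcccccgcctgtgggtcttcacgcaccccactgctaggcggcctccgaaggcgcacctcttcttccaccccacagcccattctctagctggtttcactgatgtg
The pair starts 45 bases before the start in Igtp, 75 in Irgm2 and 81 in Tgtp2. These 3 genes had 3.82%, 8.15% and 0.254% of their ATEV means left with DNase-treated ATEVs, so genes with the same arrangement kept different levels. Gbp3 kept 3.94%, Psmb8 0.279%, B2m 11.2% and Irf1 19.7%.

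**Figure D3:**
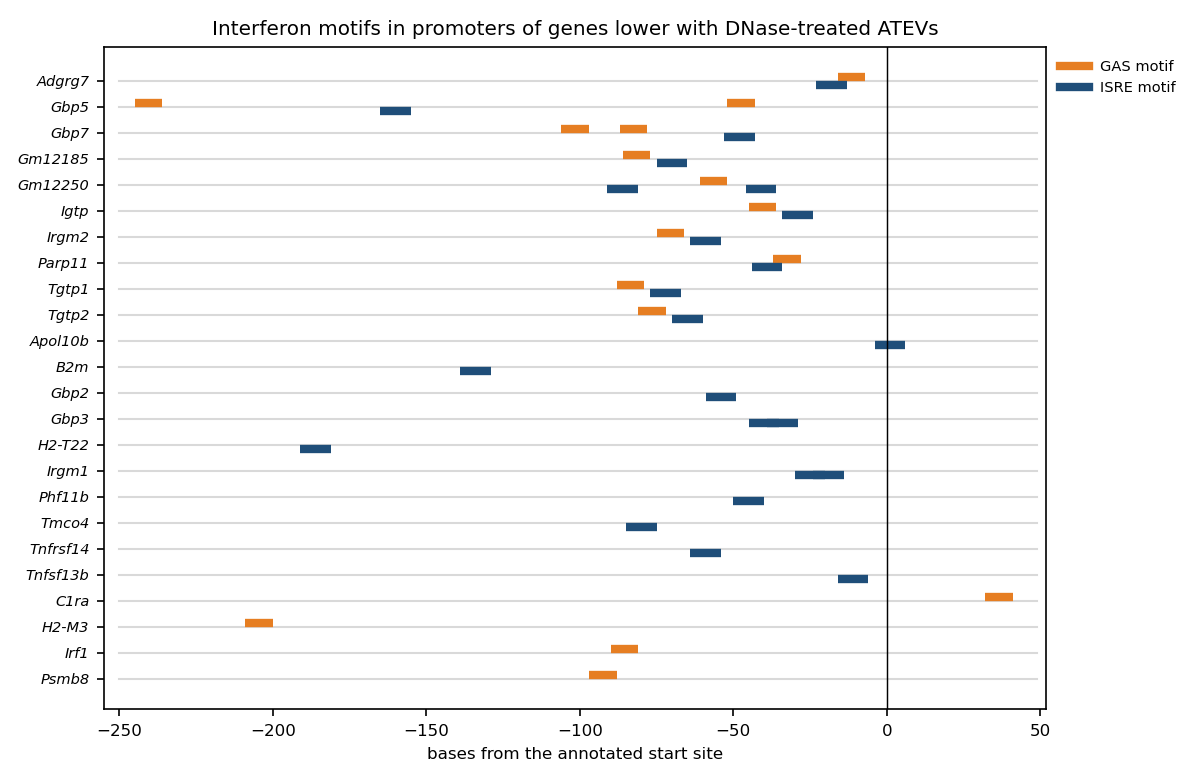
Positions of GAS (orange) and ISRE (blue) matches in bases from the annotated start, for the 24 lower genes with a match. In 10 genes both motifs occur, in 10 an ISRE alone and in 4 a GAS alone; in Gm12185, Igtp, Irgm2, Tgtp1 and Tgtp2 the GAS directly precedes the ISRE.

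Among 30 measured interferon receptors and signalling genes, 3 were lower with DNase-treated ATEVs and none was higher, and the median log2 fold change was -0.04. At an unadjusted p under 0.05 in edgeR, 8 were lower and 1 was higher, where 4.97% and 6.38% of all genes tested were. Irf1, a transcription factor induced early by interferon, had 57.2 and 58.2 CPM with DNase-treated ATEVs, against 393 and 192 CPM with ATEVs (log2 -2.34, SE 0.35, edgeR adjusted p = 0.0412). Batf2, a partner of IRF1 in macrophages, had 1.77 and 0.946 CPM with DNase-treated ATEVs, against 38.0 and 13.7 CPM with ATEVs (log2 -4.25, SE 0.56, edgeR adjusted p = 0.026). The calls of Irf1 and Batf2 were lost without DNase-treated library 1 (edgeR adjusted p 0.248 and 0.154) and without library 2 (0.284 and 0.203), and that of Irf1 also without ATEV library 1 (0.0627). Irf8, an interferon-induced factor of immune cells, had no count with DNase-treated ATEVs and 2.53 and 0.525 CPM with ATEVs (at least 41.5-fold lower) but did not pass (edgeR adjusted p = 0.225). Ifngr1, the ligand-binding chain of the interferon gamma receptor, overlapped between the groups, at 232 and 249 CPM with DNase-treated ATEVs and 143 and 233 CPM with ATEVs (log2 0.35, 95% interval -0.22 to 0.93).

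Of 65 measured antiviral interferon-stimulated genes 10 were lower and none was higher, with a median log2 fold change of -0.92. At an unadjusted p of 0.05, 38 were lower and 1 was higher, where 4.97% and 6.38% of all genes tested were. Phf11b fell to 0.339 and 0.324 CPM with DNase-treated ATEVs, against 4.99 and 4.02 CPM with ATEVs (log2 -3.75, SE 0.33, edgeR adjusted p = 0.00544). Cmpk2, a mitochondrial nucleotide kinase, fell to 0.0726 and 0.398 CPM, against 10.4 and 10.6 CPM with ATEVs (log2 -5.47, SE 0.62, edgeR adjusted p = 0.0127). Parp9 and its ubiquitin ligase partner Dtx3l, encoded side by side, stood at 35.0% and 37.1% of their ATEV means. Both DNase-treated libraries lay below both ATEV libraries for 48 of the 65 genes, where they did for 16.8% of all genes tested. The groups overlapped for 16. Among these, Oasl1, an OAS-like protein, had 61.2 and 67.6 CPM with DNase-treated ATEVs, against 65.1 and 63.8 CPM with ATEVs. Helz2, a nuclear coactivator, had 119 and 149.7 CPM, against 109 and 154 CPM with ATEVs. Isg15, a ubiquitin-like modifier, had 8.96 and 9.61 CPM with DNase-treated ATEVs and 21.9 and 26.7 CPM with ATEVs (log2 -1.39, edgeR adjusted p = 0.278). The whole list summed to 2559 and 3272 CPM with DNase-treated ATEVs, against 4909 and 5012 CPM with ATEVs, 2415 and 2970 CPM with NTEVs and 2086 and 1968 CPM with PBS. The list had 1 and 1 lower genes when DNase-treated library 1 or 2 was left out, and 2 and 9 when ATEV library 1 or 2 was. The calls of Parp9, Dtx3l and Phf11b were lost without either DNase-treated library (highest edgeR adjusted p 0.248, 0.229 and 0.0688). Those of Parp9 and Dtx3l were also lost without ATEV library 1 (0.18 and 0.131).

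**Figure D4:**
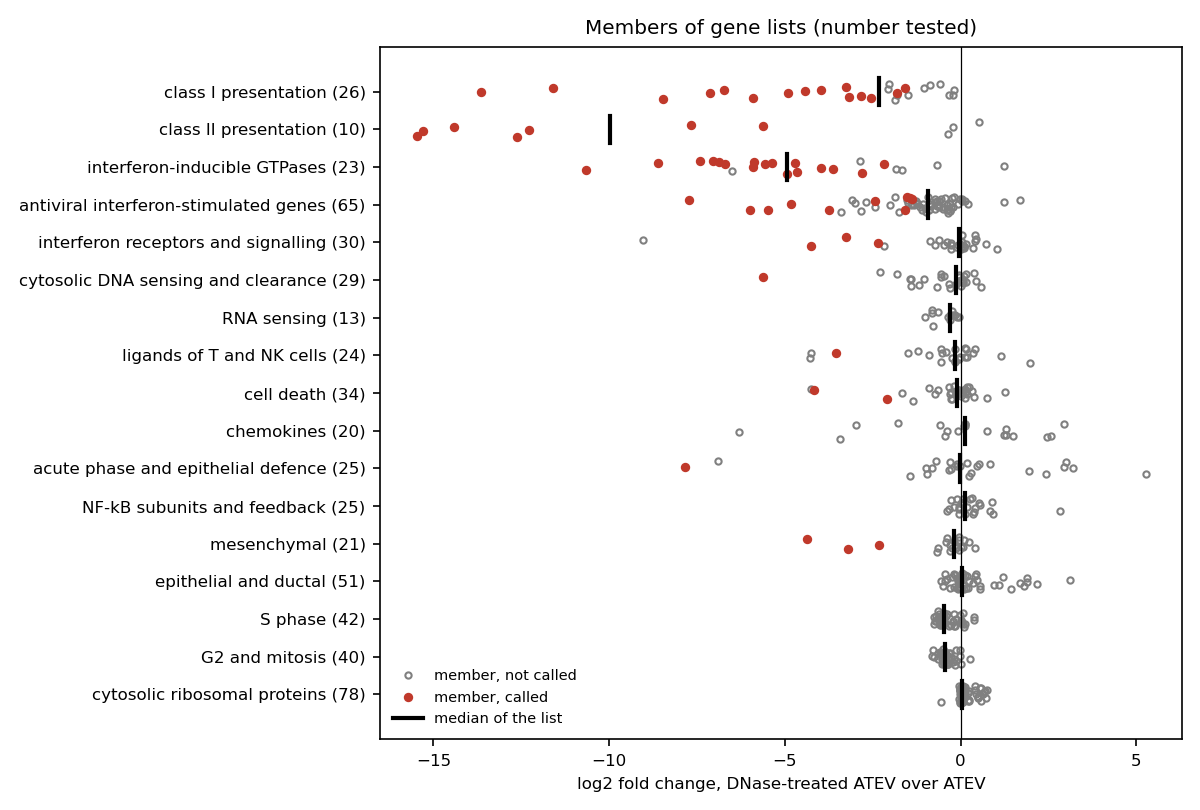
Log2 fold change of DNase-treated ATEV over ATEV for the measured members of 17 gene lists, with filled points for members called by edgeR and a black bar for the median of each list. The medians of class II presentation (-9.98), the GTPases (-4.93) and class I presentation (-2.31) lie far from 0, while those of the chemokines (0.13) and NF-kB genes (0.13) lie near it.

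Of 29 measured genes of cytosolic DNA sensing and clearance, 1 was lower with DNase-treated ATEVs and none was higher, with a median log2 fold change of -0.12. At an unadjusted p under 0.05 in edgeR, 8 were lower and none was higher, where 4.97% and 6.38% of all genes tested were. The called gene was Zbp1, a sensor of Z-form nucleic acids that can trigger necroptosis. It had 0.774 and 0.896 CPM with DNase-treated ATEVs, against 50.8 and 31.0 CPM with ATEVs, 0 and 0.0747 CPM with NTEVs and 0.0777 and 0.0608 CPM with PBS. Its log2 fold change was -5.61 (SE 0.47, edgeR adjusted p = 0.00485), and both DNase-treated libraries stood above all 4 background libraries. Without DNase-treated library 1 it was not called (edgeR adjusted p = 0.06). Cgas had 1.98 and 1.47 CPM with DNase-treated ATEVs, against 5.15 and 1.89 CPM with ATEVs (log2 -1.03, 95% interval -2.40 to 0.35). Tmem173, which encodes STING, had 8.62 and 15.3 CPM with DNase-treated ATEVs, against 13.7 and 21.7 CPM with ATEVs (log2 -0.57, 95% interval -1.84 to 0.70). Neither was called, and their intervals include both no change and a fall by more than 1 on the log2 scale. Ifi203 and Mndal, of the AIM2-like receptor family, had 19.9 and 28.1 CPM and 9.34 and 18.5 CPM with DNase-treated ATEVs, against 62.1 and 66.6 CPM and 37.0 and 36.8 CPM with ATEVs, without passing the test (edgeR adjusted p = 0.282 and 0.244). In the 13 genes of RNA sensing none was called. At an unadjusted p of 0.05, 5 of them were lower and none was higher, where 4.97% and 6.38% of all genes tested were.

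Of 20 measured chemokines none was called by edgeR, and 7 were higher with DNase-treated ATEVs and 4 lower at an unadjusted p of 0.05, where 6.38% and 4.97% of all genes tested were. The median log2 fold change was 0.13. The attractants of T cells through CXCR3 had lower values. Cxcl9 had 0.169 and 0.274 CPM with DNase-treated ATEVs, against 31.1 and 4.59 CPM with ATEVs (log2 -6.31, SE 1.03, edgeR adjusted p = 0.0588). Cxcl10 had 1.94 and 3.01 CPM with DNase-treated ATEVs, against 46.0 and 7.12 CPM with ATEVs (log2 -3.42, SE 0.84, edgeR adjusted p = 0.195). The attractants of neutrophils through CXCR2 and the CCR6 ligand had higher values. Cxcl1 had 256 and 125 CPM with DNase-treated ATEVs, against 31.1 and 32.7 CPM with ATEVs, 14.7 and 24.6 CPM with NTEVs and 5.71 and 19.97 CPM with PBS (log2 2.58, SE 0.60, edgeR adjusted p = 0.176). Cxcl5 had 1548 and 636 CPM with DNase-treated ATEVs, against 550.2 and 368 CPM with ATEVs (log2 1.25, SE 0.41, edgeR adjusted p = 0.313). Ccl20 had 315 and 88.9 CPM with DNase-treated ATEVs, against 35.8 and 37.3 CPM with ATEVs (log2 2.47, SE 0.58, edgeR adjusted p = 0.179). The groups did not overlap for any of these 5 genes, but in each case the libraries of one group were also far apart. Both DNase-treated libraries stood above both ATEV libraries in 19.4% of all genes tested and below them in 16.8%.

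Genes of NF-kB signalling and of the acute phase included several with higher values, again with no rise called. In the NF-kB list 7 of 25 genes were higher and none lower at an unadjusted p of 0.05, with a median log2 fold change of 0.13, and in the acute phase and epithelial defence list 7 of 25 were higher and 4 lower, with a median of -0.03. Of all genes tested 6.38% were higher and 4.97% lower at that p. The groups overlapped for 14 of the NF-kB genes and 12 of the acute phase genes, and for 9694 of all 15197 genes tested. Nfkbiz, a nuclear cofactor that directs NF-kB to Lcn2 and similar promoters, had 213 and 253 CPM with DNase-treated ATEVs, against 149 and 101 CPM with ATEVs, 74.6 and 93.6 CPM with NTEVs and 43.8 and 47.8 CPM with PBS (log2 0.90, SE 0.21, edgeR adjusted p = 0.185). Lcn2, the iron-scavenging lipocalin, had 61.7 and 40.3 CPM with DNase-treated ATEVs, against 2.64 and 8.49 CPM with ATEVs, while all 4 background libraries were below 0.1 CPM (log2 3.20, SE 0.56, edgeR adjusted p = 0.0797). Saa3, a serum amyloid of inflamed epithelium, had 6.90 and 3.01 CPM with DNase-treated ATEVs, against 0.0460 and 0.205 CPM with ATEVs (log2 5.27, SE 0.81, edgeR adjusted p = 0.068). Nox1, an epithelial NADPH oxidase, had 1.96 and 1.07 CPM with DNase-treated ATEVs, against 0.207 and 0.183 CPM with ATEVs (edgeR adjusted p = 0.0676). The single call among 25 acute phase and epithelial defence genes was a fall: Ido1, the tryptophan-degrading enzyme, had 0.0968 and 0.0249 CPM with DNase-treated ATEVs, against 21.8 and 7.74 CPM with ATEVs (log2 -7.85, SE 0.89, edgeR adjusted p = 0.0123). It was not called without DNase-treated library 1 (0.122) or library 2 (0.145). Cd14, a receptor for lipopolysaccharide that was held as a myeloid marker, carried most of the summed myeloid and B cell list of 276 and 203 CPM with DNase-treated ATEVs, against 156 and 171 CPM with ATEVs; Adgre1 and Ms4a1 had no count in any library and Itgam at most 2. The part of other cell types in the values of this paragraph was not tested beyond these markers.

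Ligands that meet T and NK cells gave 1 call in 24 measured genes, a fall, where 0.579% of all genes tested were called lower. Tnfrsf14, the HVEM receptor bound by BTLA and CD160, had 0.823 and 0.697 CPM with DNase-treated ATEVs, against 9.93 and 7.69 CPM with ATEVs (log2 -3.53, SE 0.41, edgeR adjusted p = 0.0148). It lost its call without DNase-treated library 1 (edgeR adjusted p = 0.162), library 2 (0.175) or ATEV library 1 (0.0627). Cd274, which encodes the inhibitory ligand PD-L1, had 29.9 and 60.5 CPM with DNase-treated ATEVs, against 55.7 and 78.0 CPM with ATEVs, 26.0 and 50.3 CPM with NTEVs and 18.5 and 17.7 CPM with PBS. The groups overlapped, with a log2 fold change of -0.56 and a 95% interval of -1.51 to 0.38 (edgeR adjusted p = 0.689). Icam1, the adhesion ligand of LFA-1, had 39.7 and 26.4 CPM with DNase-treated ATEVs, against 99.7 and 52.9 CPM with ATEVs, without passing (edgeR adjusted p = 0.272). Among 34 cell death genes 2 were lower and none higher, where 0.579% and 0.0855% of all genes tested were. At an unadjusted p under 0.05 in edgeR, 8 of the 34 were lower and none was higher, where 4.97% and 6.38% of all genes tested were. Casp1, the inflammasome caspase, had 0.992 and 0.821 CPM with DNase-treated ATEVs, against 16.2 and 16.3 CPM with ATEVs (log2 -4.16, SE 0.28, edgeR adjusted p = 0.0018). Among 20 complement genes C1ra, a protease of the first component, was the single lower gene (log2 -1.41, edgeR adjusted p = 0.0462), and it was called in none of the 4 fits that left out a library (adjusted p between 0.143 and 0.285).

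In the mesenchymal list 3 of 21 measured genes were lower and none was higher, with a median log2 fold change of -0.19. The groups overlapped for 13 of the 21, where they did for 9694 of all 15197 genes tested. Among the overlapping genes were Vim (log2 -0.03), Cdh2 (0.01) and Fn1 (0.43). Fstl1, a secreted glycoprotein, had 1.28 and 1.24 CPM with DNase-treated ATEVs, against 28.9 and 23.9 CPM with ATEVs, 2.27 and 1.10 CPM with NTEVs and 2.25 and 1.82 CPM with PBS (log2 -4.38, SE 0.37, edgeR adjusted p = 0.00503). Acta2, smooth muscle actin, had 4.07 and 4.36 CPM with DNase-treated ATEVs, against 38.5 and 39.8 CPM with ATEVs (log2 -3.22, SE 0.38, edgeR adjusted p = 0.0154). Prrx1, a mesenchymal transcription factor, had 2.13 and 1.94 CPM with DNase-treated ATEVs, against 10.4 and 9.97 CPM with ATEVs (log2 -2.32, SE 0.33, edgeR adjusted p = 0.032). The fibroblast and endothelial marker list summed to 10.99 and 16.2 CPM with DNase-treated ATEVs, against 42.5 and 49.1 CPM with ATEVs. Acta2 is itself a member and made up most of the ATEV sum. Without Acta2 the sum was not lower with DNase-treated ATEVs. Of the 6 measured members, both DNase-treated libraries lay below both ATEV libraries for 2, Acta2 and Pdpn. They lay above for 1, Col1a1, and the groups overlapped for 3. The defining fibroblast genes Col1a2 and Dcn had at most 1 count in any library, and Col1a1 had 5.71 and 9.76 CPM with DNase-treated ATEVs, against 2.14 and 4.77 CPM with ATEVs. Apol10b, an apolipoprotein L gene, had no count with DNase-treated ATEVs and 13.4 and 9.72 CPM with ATEVs, at least 313-fold lower (edgeR adjusted p = 0.00273). The call of Fstl1 was lost without DNase-treated library 1 (0.058), that of Acta2 without library 1 (0.164) or library 2 (0.154) of that group, and Prrx1 was called in none of the 4 fits that left out a library (up to 0.251).

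The 13 higher genes belonged to none of the lists, and 8 of them are protein-coding. The rule for named genes took 8 that passed, and 4 that did not. Homer2, a postsynaptic scaffold protein, had 33.7 and 25.0 CPM with DNase-treated ATEVs, against 10.4 and 9.47 CPM with ATEVs, 65.5 and 59.8 CPM with NTEVs and 56.2 and 57.7 CPM with PBS (log2 1.57, SE 0.18, edgeR adjusted p = 0.0123). It stood between the ATEV and the background levels. Slc4a11, a membrane transporter, had 6.46 and 6.82 CPM with DNase-treated ATEVs, against 1.22 and 2.08 CPM with ATEVs, 8.89 and 8.56 CPM with NTEVs and 10.8 and 9.03 CPM with PBS (log2 2.01, SE 0.28, edgeR adjusted p = 0.0321). Serpinb5, the serpin maspin, had 15.7 and 13.5 CPM with DNase-treated ATEVs, against 6.05 and 5.18 CPM with ATEVs, 16.0 and 12.4 CPM with NTEVs and 28.4 and 27.6 CPM with PBS (log2 1.38, SE 0.20, edgeR adjusted p = 0.0332). Onecut3, a transcription factor, had 14.1 and 13.7 CPM with DNase-treated ATEVs, against 6.14 and 7.17 CPM with ATEVs (log2 1.07, SE 0.16, edgeR adjusted p = 0.0423). For these 4 genes the ATEV libraries were the lowest of the 8. Other rises went above the background. Ltbp2, a matrix protein of elastic fibres, had 59.8 and 54.4 CPM with DNase-treated ATEVs, against 22.03 and 26.7 CPM with ATEVs, 2.31 and 2.39 CPM with NTEVs and 1.75 and 1.58 CPM with PBS (log2 1.23, SE 0.16, edgeR adjusted p = 0.0259). Gdpd5, a glycerophosphodiesterase, had 36.6 and 17.6 CPM with DNase-treated ATEVs, against 5.33 and 6.41 CPM with ATEVs (log2 2.21, SE 0.34, edgeR adjusted p = 0.0439). Xist, the RNA that silences an X chromosome, had 1269 and 2428 CPM with DNase-treated ATEVs, against 443 and 409 CPM with ATEVs, 546 and 727 CPM with NTEVs and 299 and 324 CPM with PBS (log2 2.12, SE 0.30, edgeR adjusted p = 0.0342). DNase-treated library 2 was far above library 1, and both stood above the other 6 libraries. Kcnq1ot1, an imprinted antisense RNA, rose by log2 2.01 (SE 0.30, edgeR adjusted p = 0.0396), with the limit that the strand setting of the counts is unknown. Saa3, Add2, Smim15 and Alg5 were taken by the rule without passing, with edgeR adjusted p of 0.068, 0.0616, 0.0527 and 0.0527. None of the 8 kept its call in all 4 fits that left out a library. Homer2 missed narrowly, with edgeR adjusted p of 0.058 when DNase-treated library 1 was left out, 0.0519 for ATEV library 1 and 0.0579 for ATEV library 2, while the highest values were 0.268 for Gdpd5, 0.201 for Xist, 0.203 for Slc4a11, 0.241 for Kcnq1ot1, 0.195 for Serpinb5, 0.207 for Ltbp2 and 0.302 for Onecut3.

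**Figure D5:**
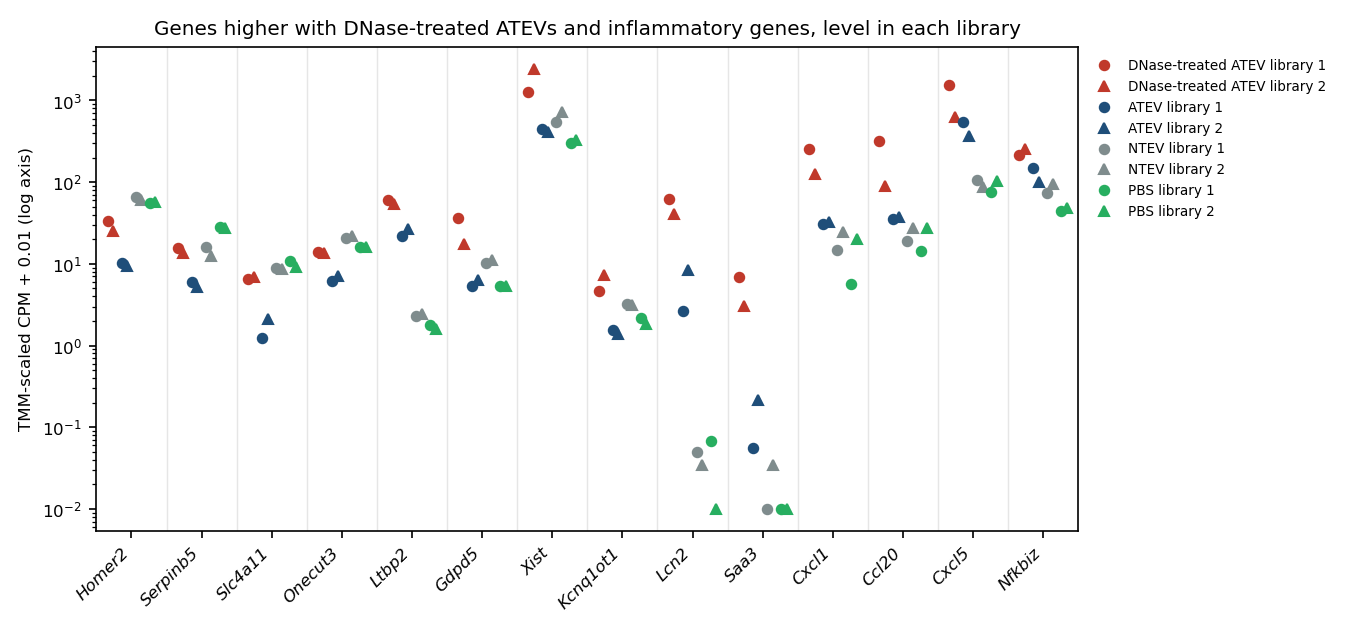
TMM-scaled CPM plus 0.01, on a log axis, of the 8 higher genes taken by the rule and of 6 inflammatory genes that did not pass, in each of the 8 libraries. Homer2, Serpinb5, Slc4a11 and Onecut3 have their lowest levels with ATEVs, while Ltbp2, Lcn2, Saa3, Cxcl1 and Cxcl5 are highest with DNase-treated ATEVs.

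Programmes of growth and of tissue identity gave no call. None of 42 S phase genes, 40 genes of G2 and mitosis, 78 cytosolic ribosomal proteins, 43 respiratory chain genes, 51 epithelial and ductal genes or 41 matrix genes passed edgeR's test, nor any in the other lists drawn up (cytokines, RNA sensing, p53 targets, stress, metabolism, Notch, YAP and immediate early genes). At an unadjusted p under 0.05, 14 ribosomal protein, 8 respiratory chain, 5 epithelial and 6 matrix genes were higher, 2 respiratory chain and 2 matrix genes were lower, and no S phase or mitotic gene was either, where 6.38% of all genes tested were higher and 4.97% lower. The counts of lower respiratory chain and matrix genes are near their share. Those of higher ribosomal protein, respiratory chain and matrix genes are above theirs, and that of higher epithelial genes is less far above it. DESeq2 called 24 members of the lists without a call, and edgeR with no filter on low counts 19. Over all genes tested the groups overlapped for 9694 of 15197. The S phase list had a median log2 fold change of -0.46, but all 42 of its genes overlapped between the groups. Replicates were further apart than the groups here: the S phase genes were higher in library 1 than in library 2 for 42 of 42 genes in both groups, by a median log2 of 0.67 with DNase-treated ATEVs and 1.18 with ATEVs. Genes of ribosome biogenesis did the same in 33 of 33 genes (0.74 and 0.90). Epcam, an epithelial adhesion molecule, had 16.8 and 29.9 CPM with DNase-treated ATEVs, against 6.44 and 15.3 CPM with ATEVs, and did not pass (edgeR adjusted p = 0.409). Muc5ac, a gastric mucin, had 1.62 and 3.56 CPM with DNase-treated ATEVs, against 0.115 and 0.479 CPM with ATEVs, 10.4 and 33.0 CPM with NTEVs and 2.18 and 7.66 CPM with PBS (edgeR adjusted p = 0.295). Lars2, the mitochondrial leucyl-tRNA synthetase, had 158 and 157 CPM with DNase-treated ATEVs and 159 and 186 CPM with ATEVs (log2 -0.13, 95% interval -0.49 to 0.22), against 879 and 1000.3 CPM with PBS.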

How the data were processed

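RNA of 8 libraries of cultured mouse pancreatic cancer cells was sequenced after a stranded mRNA preparation (labels' protocols). The values used are gene counts as deposited by the authors, 1 column per library. Cufflinks 2.1.1, TopHat2 2.0.11, TopHat, bcl2fastq 2.19 and the build mm9 are listed in the submitters' processing notes without their roles. Which program counted reads, on which annotation and with which strand option is not given in the sources used here, so overlapping and antisense genes are uncertain. Names of 42250 identifiers came from GENCODE M21.

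In R 4.3.3, edgeR 4.0.16 filtered genes (filterByExpr by group), scaled counts by TMM and fitted 1 mean per group over all 8 libraries, which share the spread (4 residual degrees of freedom; common coefficient of biological variation 0.226). The contrast was DNase-treated ATEV minus ATEV, two-sided, with Benjamini-Hochberg adjustment over 15197 genes. CPM are TMM-scaled. Intervals of log2 fold changes rest on the spread between libraries, while floors and intervals of count ratios cover counting error only. An exact permutation test of 2 against 2 libraries cannot go below 0.333, so none was used. Replicates differed by more than sampling noise (chi-square per gene 100.4 with DNase-treated ATEVs and 144.5 with ATEVs).

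Named genes were up to 12 genes per direction, by size of change, with an adjusted p under 0.05, an average log2 CPM over the 4 libraries of at least 1 and no overlap, without predicted models, filled up by the smallest p; up to 4 members of smallest p of each list described; and a set of fixed genes. Other genes named were chosen after their values were seen. The lists and members were chosen with earlier results of these data known. DESeq2 1.42.0, other filters, scalings, sets of libraries and a block were tried. The steps were tested on simulated data. Some genes and alleles are not reported here.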

Additional observations from a re-analysis of the deposited data

How the results depend on the processing

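All 88 lower and 13 higher calls were shared by the fits with RLE scaling, with DESeq2, with no filter on low counts and with either replicate block. Signs were followed only for genes taken by the rule for named genes, without those taken from some of the lists. None of the genes followed changed sign under the alternatives run. Other genes given here, Vim and Cdh2 among them, were not followed. The number of calls differed between the alternatives. DESeq2 called 255 lower and 162 higher genes, and no filter 219 and 124, so the share of lower genes among the calls was 61.2% and 63.8% in place of 87.1%. With the 4 libraries compared alone edgeR called 47 lower and 0 higher genes (1046 at an unadjusted p under 0.05), and with the 6 EV libraries 50 and 3. Leaving out 1 library gave between 24 and 93 lower and between 0 and 6 higher calls, the lowest without DNase-treated library 1 and, for the higher ones, without ATEV library 1 (1395 genes at an unadjusted p under 0.05), and 24 of the 101 calls held in all 4 such fits. They include H2-K1, H2-D1, B2m, Tap1, Psmb8, Psmb9, Cd74 and Iigp1. The causes were not tested.

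The replicate numbers are not said to mark a shared batch and there are only 2 pairs, though deviations of same-numbered libraries correlated at 0.552. With the number as a block over 8 libraries edgeR called 105 lower and 22 higher genes, and over the 6 EV libraries 956 and 780 (55.1% lower).

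By list, lower calls under DESeq2, no filter, the 4 libraries alone, the 6 EV libraries, the block over 8 and the block over 6 libraries were 18, 21, 7, 7, 17 and 21 for the GTPases; 28, 26, 3, 4, 16 and 40 for the antiviral genes; 7, 7, 0, 1, 3 and 9 for interferon signalling; 5, 5, 1, 1, 2 and 10 for DNA sensing; 4, 5, 1, 0, 2 and 6 for ligands; 7, 6, 1, 1, 2 and 8 for cell death; 4, 4, 0, 0, 1 and 5 for complement; 3, 3, 0, 1, 1 and 3 for acute phase genes; 3, 3, 2, 1, 3 and 5 for mesenchymal genes; and 1, 1, 1, 0, 1 and 1 for fibroblast and endothelial markers. Members of the other lists, in either direction, gave 24, 19, 0, 0, 1 and 110 calls. Complement also had 0 with a filter of 1 CPM in 2 libraries. Leaving out 1 library gave between 10 and 18 lower class I genes, between 6 and 7 class II genes, between 2 and 17 GTPases, between 1 and 9 antiviral genes, between 0 and 4 interferon signalling genes, between 0 and 2 DNA sensing, acute phase and mesenchymal genes, between 1 and 2 cell death genes, between 0 and 1 ligands and fibroblast markers, 0 complement genes and between 0 and 3 members of the other lists.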
